A study of Mus musculus with 4 samples.

Results

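The cell cycle genes described here are 39 genes that act in DNA replication and mitosis, read by their symbols from the 4 count matrices of fine-needle aspirates (FNA) of mouse liver. They are 39 of the 33696 genes in the matrices, and all 39 were detected in each library. Cells were called cycling when they held at least 2 unique molecular identifiers (UMIs, each standing for 1 captured RNA molecule) over Mki67, Top2a and Cdk1, and 498 of the 25359 kept cells met this rule. The other 36 genes were not used to choose cells.

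The livers came from male C57BL/6J mice, 7 weeks old at the start, that ate a diet of fructose, palmitate, trans-fat and cholesterol (FPC), which induces steatohepatitis, throughout. P-LC24 received 0.05% cholesterol up to week 24 and P-HC24 received 1.25% up to week 24. After a further 8 weeks in which every mouse ate 0.05% cholesterol, the same animals were aspirated again as I-LC32, which had 0.05% throughout, and I-HC32, which had 1.25% before week 24. Each group was 1 library that pooled 12 aspirates, 4 from each of 3 mice, so the comparisons below (Prog, P-HC24 over P-LC24, and Int, I-HC32 over I-LC32) carry no test between conditions. No diet without FPC was sampled, the mice of the 2 diets are different animals, and no sort of the cells, labelled non-parenchymal, is named.

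A dividing cell first licenses its origins with Cdt1, Cdc6 and the Mcm helicase, copies its DNA in S phase with a fresh supply of deoxynucleotides, and then enters mitosis, driven by Cdk1 with cyclins A and B and ended when the anaphase promoting complex marks those cyclins for destruction. Most genes of S phase are switched on by E2F factors, while those of G2 and mitosis carry CHR and CCAAT elements in their promoters and are held off in resting cells by the DREAM complex. In and around the liver, resident and serous-cavity macrophages, B-1 cells and activated T cells can renew by division in place, whereas neutrophils have left the cycle.

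The 4 libraries kept 4930 to 6978 cells with a median of 6297.5 to 8541 UMIs per cell and 38509673 to 77017579 UMIs in all. Between 12 and 29 cell barcodes were shared by a pair of libraries, 0.217% to 0.588% of the smaller one. Cells were clustered without the cell cycle genes, so that dividing cells stayed with their type, and clusters were given a name ending in "-like" from marker lists. No cluster was named for Kupffer, endothelial or stellate cells, and 66 cells were hepatocyte-like. These names were rebuilt here, and differences from the study may come from that. Probable doublets, 212 to 432 per library, were removed first, and 47 of these 1466 droplets met the cycling rule (3.21%, 95% exact binomial interval 2.37% to 4.24%). All intervals cover counting error only and say nothing of the spread between mice. Those of gene levels and ratios take UMIs as independent and do not cover their clumping in few cells.

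Cycling cells were few in every library. They numbered 80 of 4930 cells in P-LC24 (1.62%, 1.29 to 2.02), 88 of 6532 in P-HC24 (1.35%, 1.08 to 1.66), 133 of 6978 in I-LC32 (1.91%, 1.60 to 2.25) and 197 of 6919 in I-HC32 (2.85%, 2.47 to 3.27). Depth differed too, and the cycling cells were deeper than the rest, with a median of 21323 against 7106 UMIs. With each cell thinned to 3000 UMIs and 225 to 325 shallower cells per library left out, the shares were 0.517%, 0.476%, 0.887% and 0.985% in the same order. The 2 week-24 libraries then lay side by side, as did the 2 week-32 libraries, with overlapping intervals (0.331 to 0.768 and 0.321 to 0.678; 0.676 to 1.14 and 0.761 to 1.25). In Int the unthinned share was higher after 1.25% cholesterol while the CPM of Mki67, Top2a and Cdk1, given below, was not, so no order of I-LC32 and I-HC32 was read from the share.

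Many cells passed the rule narrowly. Of the 498, 232 held exactly 2 UMIs of the 3 genes, 50 held 3 and 216 held 4 or more, up to 166 in 1 cell, and another 997 cells held 1. Cells with at least 10 UMIs numbered 16, 33, 48 and 56 (0.325%, 0.505%, 0.688% and 0.809%), in the order just used. Neutrophil-like cells served as the level of a cell type that should not divide, and 2 of 327 met the rule (0.612%, 0.0742 to 2.19) at a median of 4090 UMIs. Follicular B-like cells (39 of 9508, 0.410%, median 5126 UMIs), the T-like cluster 3 (10 of 2196, 0.455%, median 7163.5 UMIs) and lambda B-like cells (3 of 645, 0.465%, median 4969 UMIs) were under that share. Their shares were not read as above background, which does not show that no cell divided. At least 3 UMIs were held by 9 follicular B-like cells, 5 of the T-like cluster 3 and 0 neutrophil-like cells, and at least 10 by 4, 1 and 0. None of the 66 hepatocyte-like cells met the rule (interval up to 5.44%), at a median of 1545.5 UMIs, which limits cells with UMIs of the rule genes and not dividing cells.

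Most of the cycling cells lay in 4 groups of cells. Peritoneal macrophage-like cells, marked by Gata6 and Prg4, were 4.75% of all cells and 27.7% of the cycling ones, 138 of 1205 (11.5%, 9.71 to 13.4). B-1-like cells were 26.0% of all cells and 24.7% of the cycling ones, 123 of 6593 (1.87%, 1.55 to 2.22). The T-like cluster 5 was 5.73% of all cells and 17.5% of the cycling ones, 87 of 1453 (5.99%, 4.82 to 7.33). In this cluster 5 of 6 CD8 T cell markers were detected, with 2 of 5 for CD4 and 2 of 5 for regulatory T cells. Its leading genes held Gzmk and Ccl5 of the CD8 list, Cd28 of the CD4 list and Ikzf2 of the regulatory T cell list. Cluster 12, left unnamed because it held markers of both monocytes and dendritic cells, gave 30 of 341 (8.80%, 6.01 to 12.3). The macrophage-like share was thus above the B-1-like share with no overlap of intervals, although the B-1-like class gave almost as many cycling cells, and the B-1-like interval overlapped the neutrophil-like one.

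Depth differed between these groups. The median was 21622 UMIs in macrophage-like cells, 11951 in B-1-like cells, 5653 in the T-like cluster 5 and 17748 in cluster 12. Thinned to 3000 UMIs, the shares became 3.26% (2.33 to 4.43), 0.553% (0.388 to 0.765), 3.23% (2.36 to 4.31) and 4.49% (2.54 to 7.30), against 0.373% (0.00945 to 2.06) in neutrophil-like cells. At 3000 UMIs macrophage-like cells, the T-like cluster 5 and cluster 12 did not differ beyond counting error, and all 3 lay above B-1-like cells. Thinned to 10000 UMIs, the T-like cluster 5 had 30.99% (23.5 to 39.3), over the 142 of its cells that were deep enough. Macrophage-like cells then had 6.58% (5.22 to 8.17) and cluster 12 had 6.60% (4.08 to 10.0). Their order thus depended on the depth chosen and the cells kept. The B-1-like value at 3000 UMIs lay within the neutrophil-like interval. Its unthinned share of 1.87% was read only together with the other genes below. Other classes gave few cycling cells. NK-like cells had 19 of 554 (3.43%, 2.08 to 5.30; 1.75% thinned, 0.802 to 3.29) and the T-like cluster 14 had 6 of 129 (4.65%, 1.73 to 9.85). Erythroid-like cells had 11 of 502 (2.19%, 1.10 to 3.89), monocyte-like cells 15 of 728 (2.06%, 1.16 to 3.38) and the T-like cluster 7 had 9 of 954 (0.943%, 0.432 to 1.78), all with intervals that overlapped the neutrophil-like one.

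Within each class the share was also followed by library. Among macrophage-like cells it was 12 of 35 in P-LC24, 39 of 462 in P-HC24 (8.44%, 6.07 to 11.4), 10 of 74 in I-LC32 (13.5%, 6.68 to 23.5) and 77 of 634 in I-HC32 (12.2%, 9.71 to 14.9). The low-cholesterol libraries held so few macrophage-like cells, under 50 in P-LC24, that the 34.3% there (19.1 to 52.2) is a value over 35 cells. Thinned to 3000 UMIs the 4 shares were 8.82%, 3.05%, 1.37% and 3.33%, with intervals that all overlapped.

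In B-1-like cells 12 of 698, 20 of 1700, 28 of 1812 and 63 of 2383 cells were cycling in the same order of libraries, or 1.72%, 1.18%, 1.55% and 2.64%. The I-HC32 share was the highest, and thinning brought the 4 values to 0.444%, 0.533%, 0.620% and 0.549%. In the T-like cluster 5 the counts were 21 of 246, 5 of 217, 36 of 577 and 25 of 413, or 8.54%, 2.30%, 6.24% and 6.05%. P-HC24 was the low library, with an interval (0.752 to 5.30) under that of P-LC24 (5.36 to 12.8). After thinning it had 0 of 208 cells (interval up to 1.76%), against 2.61% (0.963 to 5.59) in P-LC24, and these intervals overlapped. At least 3 UMIs were held by 3 of the 217 cells in P-HC24 and 8 of the 246 in P-LC24. In cluster 12 the counts were 3 of 56, 6 of 84, 14 of 92 and 7 of 109, and their intervals overlapped.

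**Figure D1:**
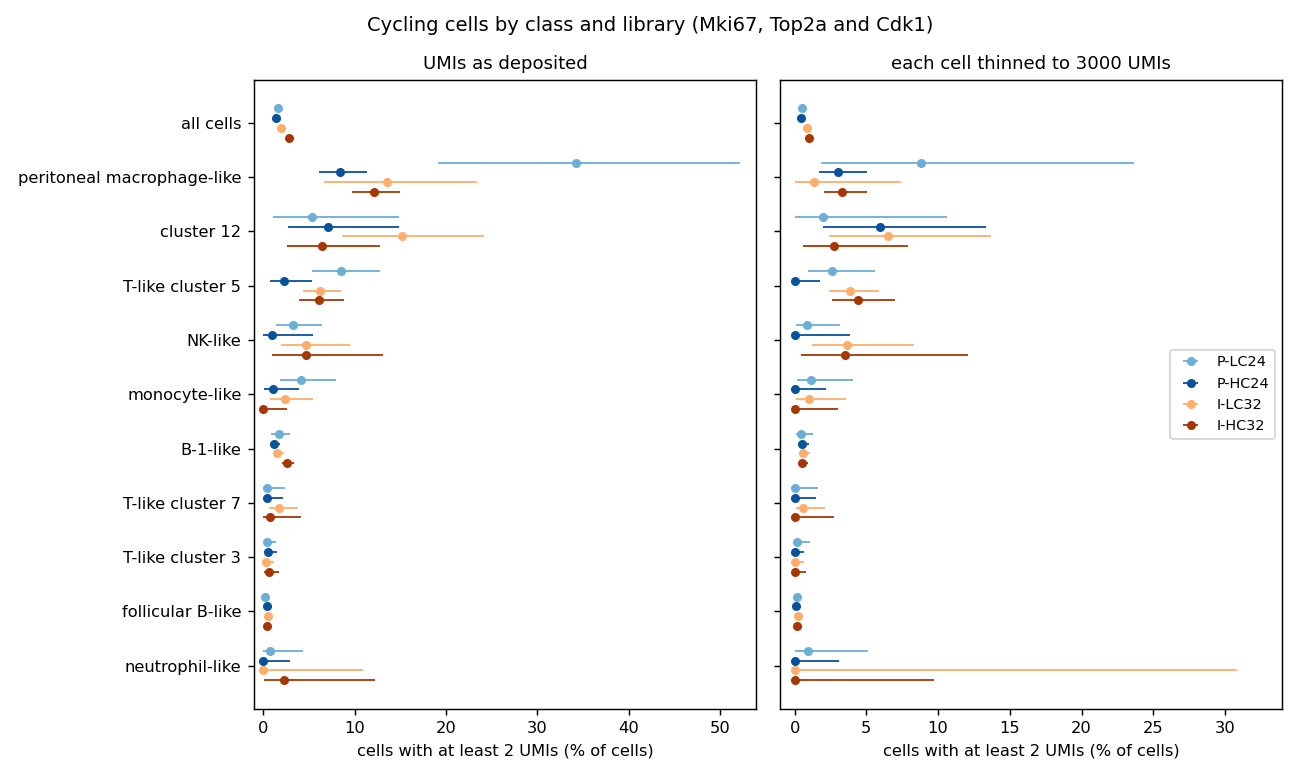
Percent of cells that met the cycling rule (x axis) by class (y axis) and library (color), as deposited on the left and thinned to 3000 UMIs per cell on the right, with 95% exact binomial intervals as bars. Macrophage-like cells reach 34.3% over 35 cells in P-LC24, the T-like cluster 5 lies between 2.30% and 8.54%, and B-1-like cells stay between 1.18% and 2.64% as deposited.

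Because macrophage-like cells differed in number between the diets, library totals were also taken without them. The cycling shares were then 1.39% and 0.807% at week 24 (P-LC24 and P-HC24) and 1.78% and 1.91% at week 32 (I-LC32 and I-HC32). P-HC24 was the lowest library either way, and I-HC32 came down from 2.85% to 1.91%, next to I-LC32.

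Genes that mark the classes were read in the cycling cells, although the clusters were made from such genes. Of the cycling macrophage-like cells 86.2% held a UMI of Gata6, the regulator of cavity macrophages, against 78.4% of the other macrophage-like cells, and every cell of both kinds held Prg4. The 12 peritoneal macrophage markers summed to 12806.8 CPM in cycling and 14667.8 CPM in other macrophage-like cells. Clec4f, which marks Kupffer cells, was at 0 in both kinds. Of the 10 Kupffer cell markers, 8 were detected in each kind, summing to 2978.4 CPM in cycling and 3400.8 CPM in other cells. Timd4, Vsig4 and Cd5l stand in both the Kupffer cell and the peritoneal macrophage list. Timd4, a receptor of resident macrophages, was found in 41.3% and 54.7%. Of cycling B-1-like cells 100% held Cd79a, part of the B cell receptor, and 81.3% held Bhlhe41, a regulator of B-1 cells, against 52.8% of the others. The 10 B-1 markers summed to 5514.4 CPM in cycling and 6401.9 CPM in other B-1-like cells. The name B-1-like rests on 8 of 10 markers detected, and none of these was among the 10 leading genes of the class. In the T-like cluster 5, 98.9% of cycling cells held Cd3e, 62.1% held Cd8a and 24.1% held Cd4, against 89.9%, 41.6% and 23.8% of the others. Cycling cells were deeper, so a higher share with a UMI is not a higher level.

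Markers of other classes were present as well. At least 3 UMIs of 7 B cell markers were held by 25.3% of cycling and 8.64% of other cells of the T-like cluster 5, and by 15.2% and 12.6% in macrophage-like cells. In the T-like cluster 5 those markers summed to 1112.8 CPM in cycling and 226.8 CPM in other cells, 6 T cell markers to 3205.5 and 3244.2 CPM, and 6 CD8 T cell markers to 8720.6 and 14750.6 CPM. At least 3 UMIs of 6 T cell markers were held by 4.88% of cycling B-1-like and 2.90% of cycling macrophage-like cells. The part of doublets or free RNA in the cycling cells was not tested beyond these values.

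The genes outside the rule ranged from those found almost entirely in cycling cells to those spread over all cells. Cycling cells held 4.67% of all UMIs. Of the 36 genes outside the rule, 12 had more than 75% of their UMIs in cycling cells, 19 had more than 50% and 10 had less than 25%, with a median of 53.5%. The rule works on a cell's total, so deep cells meet it more readily, and a gene spread evenly over RNA would lie near 4.67%.

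The highest parts were those of Ccna2, Bub1 and Pclaf. Ccna2, cyclin A2, had 95.9% of its UMIs in the cycling cells, was found in 29.9% of them and in 0.109% of the others. Bub1, a kinase of the spindle checkpoint, had 95.2%, and Birc5 (survivin), of the chromosomal passenger complex, had 91.6%. Other mitotic genes were lower, at 17.7% for Cenpa, the histone of the centromere, 32.2% for Aurka, a spindle kinase, and 38.0% for Kif23. Pclaf, the PCNA-associated factor, was the S phase gene with the highest part, 94.0%, and Rrm2, the small subunit of ribonucleotide reductase that is made in S phase, had 83.6%.

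The 11 genes of replication licensing and fork ranged from 4.69% to 94.0%. Cdt1, the licensing factor that brings the helicase to origins, had 4.69% of its UMIs in cycling cells, equal to their part of all UMIs, with a log2 ratio of cycling over other cells of 0.00 (-0.14 to 0.15). Mcm2 had 19.3%, Mcm3 21.7% and Mcm5 32.4%, all subunits of the helicase, Cdc6 had 45.8%, and Pcna, the sliding clamp of the polymerase, had 15.9%. Hmgb2, a chromatin protein, had 22.8%, and Stmn1, a microtubule regulator, 58.2%. Within B-1-like cells the cycling-over-other log2 ratio was 0.47 for Cdt1 and 2.08 for Pcna, against 8.17 for Pclaf, and within macrophage-like cells it was 2.46 for Cdt1 and 8.76 for Pclaf.

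**Figure D2:**
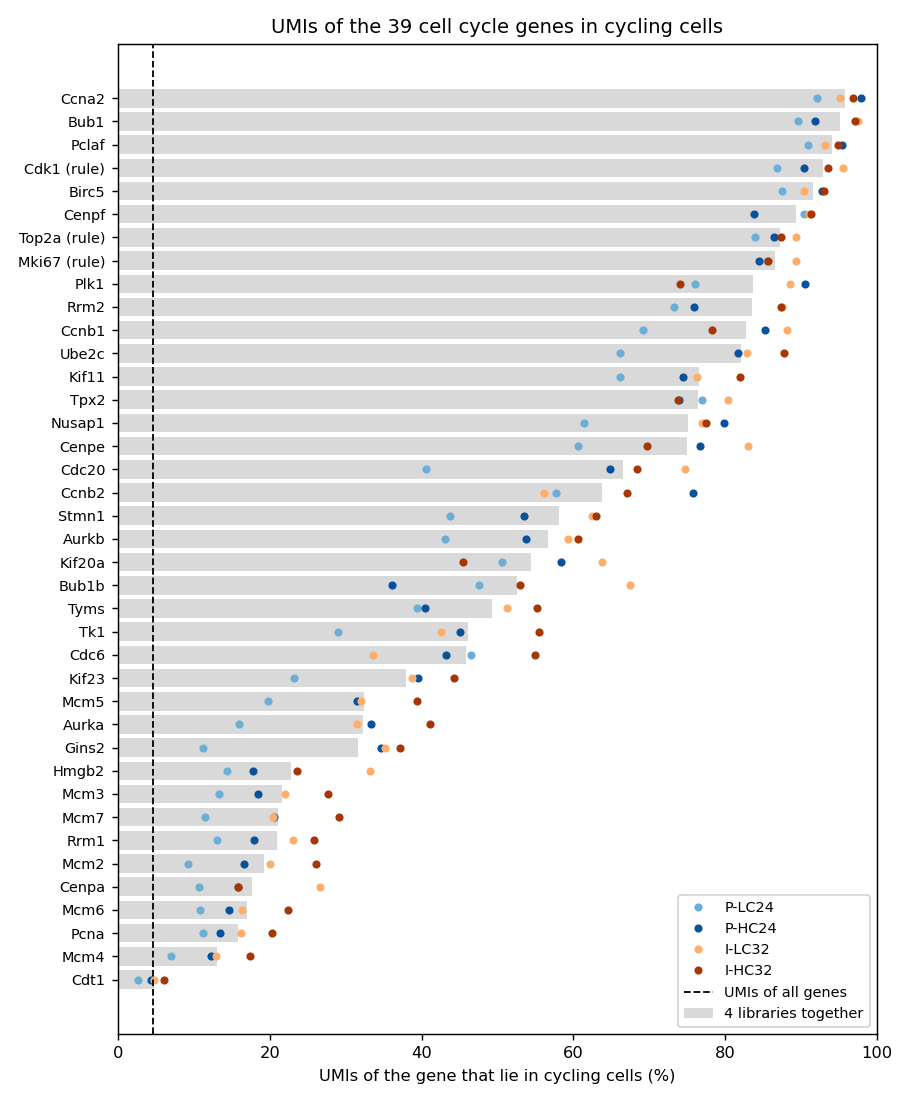
Percent of each gene's UMIs that lay in the 498 cycling cells (x axis) for the 39 genes, with bars for the 4 libraries together, points for each library and a dashed line for the UMIs of all genes. The 3 rule genes and 12 others lie above 75%, and Cdt1 lies at 4.69%, next to the 4.67% that cycling cells held of all UMIs.

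Cycling cells often held several UMIs of the other genes. Such a sum can come from 1 gene, and cycling cells were deeper (median 21323 against 7106 UMIs). Of the 39 genes a cycling cell held a UMI of 9 at the median, 16.5 in macrophage-like cells, 11 in B-1-like cells, 8 in the T-like cluster 5 and 4 in follicular B-like cells. At least 5 UMIs over 31 genes (those outside the rule, without Stmn1, Hmgb2, Pcna, Cdt1 and Cenpa) were found in 277 of the 498 cycling cells (55.6%) and in 923 of 24861 others (3.71%). The share was 60.9% against 8.06% in macrophage-like cells, 57.7% against 5.70% in B-1-like cells, 57.5% against 4.98% in the T-like cluster 5 and 93.3% against 14.2% in cluster 12. In follicular B-like cells, whose cycling share was not above that of neutrophil-like cells, it was 17.9% against 1.08%. By library the share ran from 46.8% (36 of 77, I-HC32) to 83.3% in cycling macrophage-like cells, from 42.9% (9 of 21, P-LC24) to 66.7% in the T-like cluster 5 and from 6 of 12 (P-LC24) and 10 of 20 (P-HC24) to 64.3% in B-1-like cells.

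When the listed cell cycle and histone genes were kept in the clustering instead, part of these cells left their classes. A single cluster of 96 cells formed that held 87 cycling cells, 17.5% of all cycling cells. Of the 96 cells, cycling or not, 44 had been B-1-like, 31 in the T-like cluster 5, 6 follicular B-like and 0 macrophage-like.

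The promoters of a few of these genes are shown because the genes differ in how far they were confined to cycling cells. Cdk1 and Top2a had 92.9% and 87.3% of their UMIs there (both in the rule), Mcm5, a helicase subunit, 32.4%, and Cdt1 4.69%. The sequences are the 250 bases before each RefSeq start, in the GRCm38.p6 build. Capitals mark the box CCAAT, the core of the CHR element, which is TTTGAA, and an E2F-like site, which is TTTNNCGC with either of the strong bases at each N. All were searched on both strands, so ATTGG marks the box on the other strand.
Cdk1, chr10:69352913-69353162, minus strand: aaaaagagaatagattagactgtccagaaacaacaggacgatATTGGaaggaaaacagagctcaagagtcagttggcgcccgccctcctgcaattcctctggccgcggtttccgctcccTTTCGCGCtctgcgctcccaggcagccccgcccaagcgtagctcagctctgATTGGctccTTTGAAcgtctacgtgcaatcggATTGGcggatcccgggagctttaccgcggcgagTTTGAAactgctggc
Top2a, chr11:99024190-99024439, minus strand: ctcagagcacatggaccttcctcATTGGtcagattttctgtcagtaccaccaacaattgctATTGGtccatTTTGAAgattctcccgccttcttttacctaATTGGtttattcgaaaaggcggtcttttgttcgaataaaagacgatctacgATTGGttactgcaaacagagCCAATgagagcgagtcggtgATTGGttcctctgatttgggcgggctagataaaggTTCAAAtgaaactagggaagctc
Mcm5, chr8:75109259-75109508, plus strand: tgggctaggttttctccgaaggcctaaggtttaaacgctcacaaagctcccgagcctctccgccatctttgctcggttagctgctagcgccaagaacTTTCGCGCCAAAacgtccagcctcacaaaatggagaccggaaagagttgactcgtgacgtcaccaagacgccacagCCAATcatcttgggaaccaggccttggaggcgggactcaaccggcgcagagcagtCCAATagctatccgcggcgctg
Cdt1, chr8:122567765-122568014, plus strand: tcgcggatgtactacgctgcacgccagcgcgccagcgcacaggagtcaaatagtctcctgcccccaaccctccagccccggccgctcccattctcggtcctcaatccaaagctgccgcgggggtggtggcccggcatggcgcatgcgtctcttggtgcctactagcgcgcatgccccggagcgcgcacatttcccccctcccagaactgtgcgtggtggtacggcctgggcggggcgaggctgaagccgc

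The Cdk1 promoter held 3 CCAAT, 2 TTTGAA and 1 TTTNNCGC, and that of Top2a 6 CCAAT and 2 TTTGAA. That of Mcm5 held 2 CCAAT and 2 TTTNNCGC that overlap each other on opposite strands, and the 250 bases of Cdt1 held none of the 3, with 1 TTTNNCGC further on, at base 32 after the start. Over 300 bases (250 before to 50 after the start), 32 of the 39 genes were in the table, and Ccna2, Aurkb, Kif20a, Tpx2, Mcm4, Gins2 and Stmn1 were not matched. TTTGAA was found in 14 of 19 genes outside S phase and in 1 of 13 S phase genes, against 17.9% of all 32851 promoters. TTTNNCGC was found in 7 of 13 S phase genes and in 1 of the 19 others, against 2.27% of all promoters, and CCAAT in 9 of 13 and 17 of 19, against 37.4%. In the 250 bases before the start alone, TTTGAA was in 8 of the 19 and 1 of the 13, against 15.99% of all promoters, and TTTNNCGC in 4 of the 13 and 1 of the 19, against 1.86%. A match describes letters only and is not evidence of a bound factor.

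Levels differed between classes. Of the 39 genes 8 were highest in the T-like cluster 5, 6 in cluster 12, 1 in macrophage-like cells and 0 in B-1-like cells. Another 15, among them Ccna2, Ccnb1, Cdk1 and Plk1, were highest in mast cell or basophil-like cells, a class of 115 cells with 4 cycling ones, of which 1 cell in I-LC32 held 90773 UMIs. Summed over the 39 genes, the T-like cluster 5 had 1801, 1321, 2510 and 2148 CPM (a gene's UMIs per 1000000 UMIs of those cells) in P-LC24 and P-HC24 and then in I-LC32 and I-HC32, the order kept for every set of 4 values from here on. Macrophage-like cells had 2077, 846, 1005 and 790 CPM and B-1-like cells 511, 451, 448 and 476 CPM. Neutrophil-like cells, at the background of cycling cells, had 1475, 1067, 1168 and 695 CPM. That sum came mainly from Hmgb2, at 978 CPM over the 4 libraries in neutrophil-like cells against 836 in the T-like cluster 5 and 170 in macrophage-like cells. Kif23, a kinesin of the midbody, was also highest there, at 88.0 CPM against 23.6 CPM in the T-like cluster 5, while Ccna2, Cdk1, Birc5 and Pclaf were at 0 in neutrophil-like cells. A sum over these genes is therefore not a measure of division across classes.

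Birc5 was at 54.2 CPM in the T-like cluster 5, 37.9 in cluster 12, 30.1 in macrophage-like cells, 4.27 in B-1-like cells and 0.998 in follicular B-like cells. Ube2c, which carries ubiquitin for the anaphase promoting complex, was at 66.0, 37.3, 47.0, 6.45 and 0.817 CPM in the same order, and at 149.4 CPM in mast cell or basophil-like cells, where all its UMIs came from I-LC32. Cdt1 ran the other way, at 67.6 CPM in follicular B-like cells, 33.2 in B-1-like cells, 32.8 in the T-like cluster 5, 10.9 in cluster 12 and 7.98 in macrophage-like cells. The licensing factor was thus highest in a class whose cycling share was not above that of neutrophil-like cells.

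**Figure D3:**
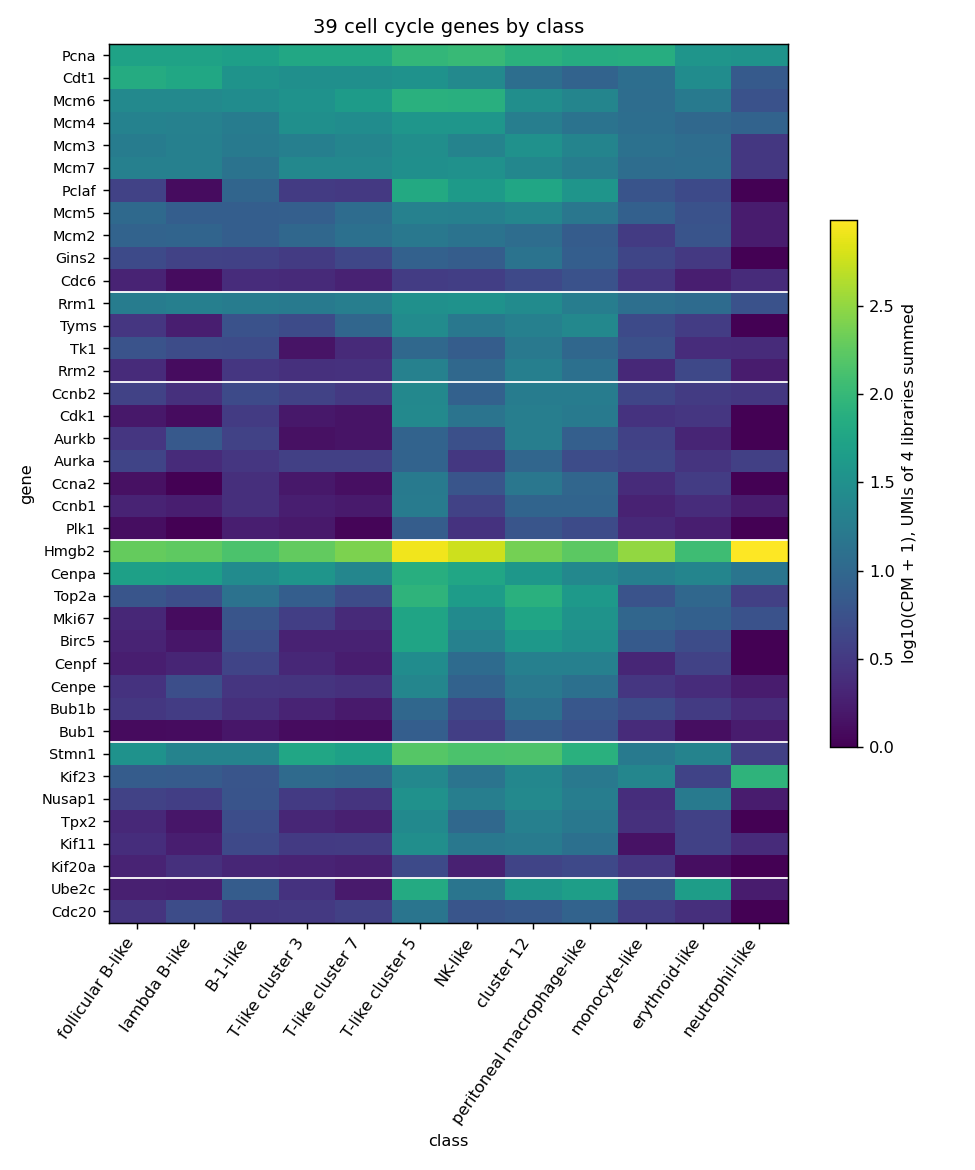
Level of each of the 39 genes (y axis, by role) in each of 12 cell classes (x axis), as the log10 of CPM plus 1 over the summed UMIs of the 4 libraries (color). Mitotic genes such as Birc5 are high in the T-like cluster 5, cluster 12 and macrophage-like cells, while Cdt1 is highest in follicular B-like cells and Hmgb2 in neutrophil-like cells.

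Across all cells of a library, 26 of the 39 genes were highest in I-LC32, against 23.7% of the 16728 genes compared, and none was lowest there. P-LC24 was the highest library for 6 genes, P-HC24 for 2 and I-HC32 for 5. In such sums over cells of many types, fewer cells of a type and less RNA per cell cannot be told apart. From week 24 to week 32 the median log2 ratio of the 39 genes was 0.43 on low cholesterol (I-LC32 over P-LC24, -0.03 over all genes) and 0.11 in the mice changed to low cholesterol (I-HC32 over P-HC24, 0.20 over all genes).

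Of the rule genes, Mki67 (chr7:135291513-135318299 in GRCm39), the Ki-67 protein that coats mitotic chromosomes, was at 10.75, 7.65, 13.2 and 12.5 CPM. Its log2 ratio was -0.49 in Prog (-0.68 to -0.30) and -0.09 in Int (-0.22 to 0.05). Without macrophage-like cells the ratios were -0.95 and -0.65. P-HC24 was the low library, but at a mitochondrial limit of 5% the Prog ratio turned to 0.19.

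Top2a (chr11:98883769-98915062), topoisomerase II, which untangles copied chromosomes, was at 17.2, 15.1, 22.2 and 17.9 CPM in that order, with log2 ratios of -0.19 (-0.33 to -0.05) in Prog and -0.31 (-0.42 to -0.20) in Int. Cdk1 (chr10:69170976-69236595), the kinase of mitotic entry, was at 3.14, 4.13, 6.91 and 4.47 CPM, with 0.39 (0.08 to 0.72) in Prog and -0.63 (-0.84 to -0.42) in Int. I-LC32 was the highest library for both, and Cdk1 turned to -0.21 (-0.66 to 0.25) in Prog without macrophage-like cells.

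**Figure D4:**
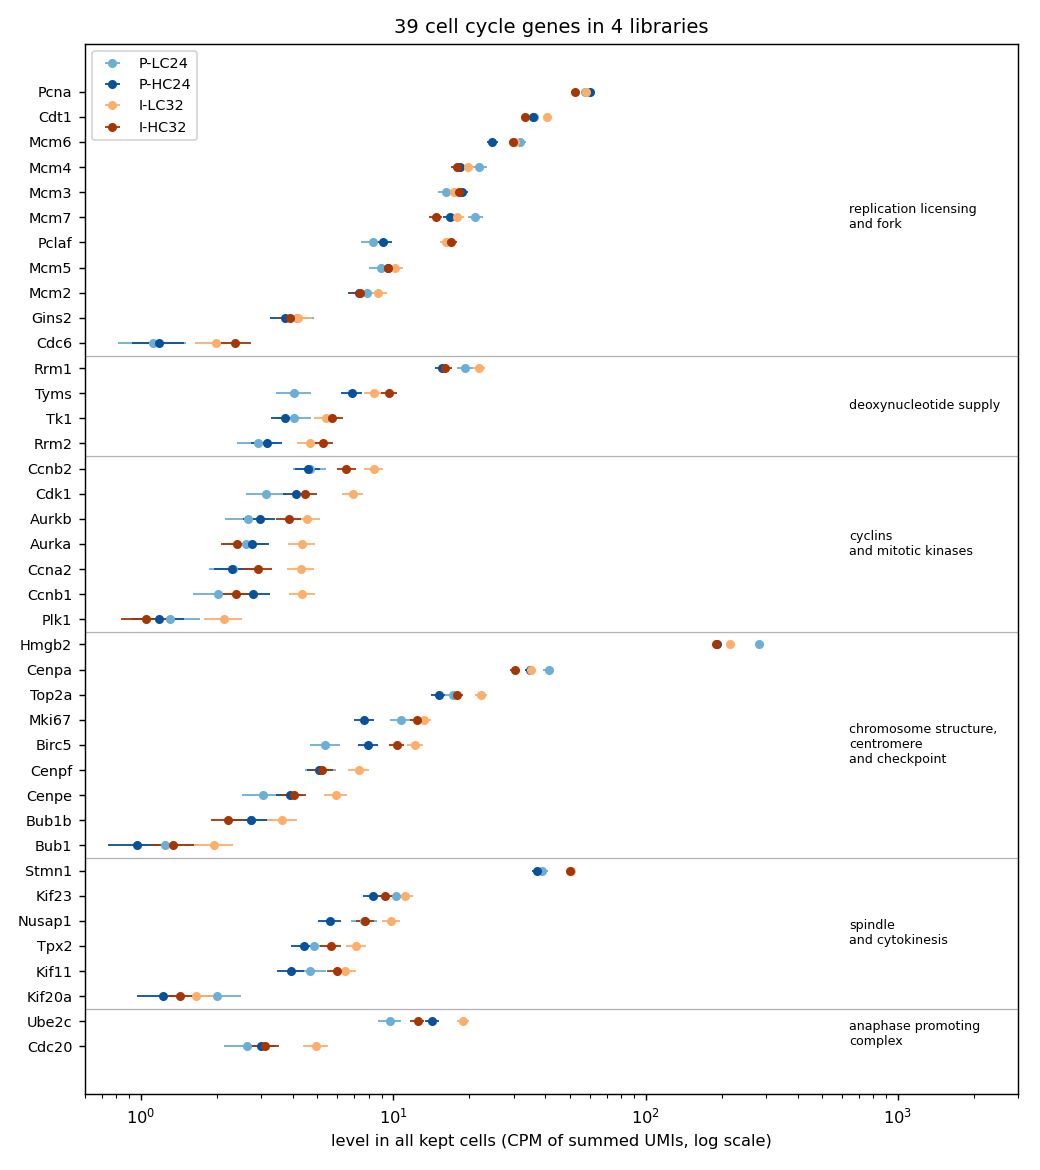
CPM of each of the 39 genes in each of the 4 libraries (log axis), with 95% exact Poisson intervals. Hmgb2 is the most abundant at 190 to 282 CPM, and I-LC32 is the highest library for 26 genes.

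In Prog, P-HC24 had 6 of the 39 genes at a level at least 1.2-fold higher, against 17.3% of all 14661 genes tested, and 9 were at least 1.2-fold lower, against 51.1%. The median log2 ratio was -0.03 for the 39 genes and -0.28 for all genes. In Int, 0 of 39 were at least 1.2-fold higher in I-HC32, against 18.5% of 15381 genes, and 18 were lower, against 23.9%, with medians of -0.24 and -0.04. The lower genes were thus 23.1% of the 39 in Prog and 46.2% in Int.

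Scaling moved these counts. Median-of-ratios size factors bring the median of all genes from -0.28 to 0.08 in Prog. The split was then 21 higher and 1 lower in Prog, against 36.8% and 23.7% of all genes. In Int the split was 1 higher and 15 lower, against 22.4% and 19.2%. With mean UMIs per cell it was 20 higher and 1 lower in Prog, against 33.8% and 27.3%, and 8 higher and 7 lower in Int, against 54.7% and 9.38%. A scaling shifts every gene by the same amount, so the gap between the median of the 39 genes and that of all genes is the same under each.

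Macrophage-like cells moved with the Prog result. They held 2.80%, 17.3%, 3.36% and 17.8% of all UMIs in the 4 libraries, and 8.15%, 24.2%, 4.64% and 22.1% of the UMIs of the 39 genes. Without them, 0 of 39 genes were at least 1.2-fold higher in Prog, against 12.9% of all genes, and 18 were lower, against 51.0%. In Int, 0 were then higher, against 14.5%, and 23 lower, against 22.3%. The medians were -0.26 against -0.27 for all genes in Prog and -0.42 against -0.01 in Int. The 39 genes thus lay at the level of genes at large in Prog, and further below it in Int, once these cells were left out.

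The 7 cyclins and mitotic kinases summed to 18.7, 20.7, 35.0 and 23.6 CPM, with a Prog log2 ratio of 0.15 and an Int log2 ratio of -0.57. Of the 7, 2 were higher and 0 lower in Prog, against 17.3% and 51.1% of all genes. In Int 0 were higher and 6 lower, against 18.5% and 23.9%. Aurkb, the kinase of the chromosomal passenger complex, was the remaining one in Int, at -0.24. Ccnb2, cyclin B2, was the most abundant at 4.67, 4.59, 8.39 and 6.52 CPM (-0.03 in Prog, -0.36 in Int). Ccnb1, cyclin B1, was at 2.03, 2.79, 4.36 and 2.39 CPM, with 0.46 (0.07 to 0.87) and -0.87 (-1.15 to -0.59). Plk1, the polo kinase, had the lowest Int ratio of all 39 genes, -1.01 (-1.43 to -0.60), at 1.30, 1.18, 2.13 and 1.05 CPM. I-LC32 was the highest library for each of the 7.

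The 2 genes of the anaphase promoting complex had a summed log2 ratio of 0.48 in Prog and -0.61 in Int. Ube2c was at 9.69, 14.2, 18.9 and 12.5 CPM, a log2 ratio of 0.56 (0.38 to 0.73) in Prog and -0.60 (-0.72 to -0.47) in Int. Cdc20, its activator, was at 2.62, 2.98, 4.93 and 3.12 CPM, with 0.19 (-0.17 to 0.55) and -0.66 (-0.91 to -0.41). Without macrophage-like cells Ube2c had 0.18 (-0.06 to 0.42) in Prog and -1.34 (-1.50 to -1.18) in Int.

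Of the 9 genes of chromosome structure, centromere and checkpoint, 2 were higher and 3 lower in Prog, against 17.3% and 51.1% of all genes. In Int 0 were higher and 5 lower, against 18.5% and 23.9%. Hmgb2 was the most abundant gene of all, at 282, 191, 216 and 190 CPM, with -0.56 (-0.60 to -0.52) in Prog and -0.19 (-0.22 to -0.15) in Int. P-LC24 was its high library, and 14.3% to 33.2% of its UMIs lay in cycling cells, so most of its UMIs were outside them. Birc5 was at 5.38, 7.94, 12.2 and 10.3 CPM, with 0.56 (0.33 to 0.80) in Prog and -0.24 (-0.39 to -0.09) in Int, and without macrophage-like cells its Prog ratio was -0.05 (-0.38 to 0.29).

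Of the 6 genes of spindle and cytokinesis, 0 were higher and 3 lower in Prog, against 17.3% and 51.1% of all genes. In Int 0 were higher and 2 lower, against 18.5% and 23.9%. Stmn1 was the most abundant, at 38.9, 37.1, 50.5 and 50.2 CPM, with -0.07 and -0.01. Kif20a, a kinesin of cytokinesis, had the lowest Prog ratio, -0.71 (-1.19 to -0.24), from 77 UMIs in each library (2.00 and 1.22 CPM), and its Int interval held 0, at 1.65 and 1.43 CPM.

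The 11 genes of replication licensing and fork had 0 higher and 2 lower in Prog and 0 higher and 2 lower in Int, from -0.37 to 0.20 and from -0.29 to 0.26. Pcna was the most abundant, at 57.6, 60.1, 58.2 and 52.4 CPM, with 0.06 (-0.01 to 0.14) and -0.15 (-0.22 to -0.09). Cdc6, the loader of the helicase, had the highest Int ratio, 0.26 (-0.08 to 0.60), at 1.12, 1.18, 1.98 and 2.36 CPM, an interval that held 0. Summed, the S phase genes had log2 ratios of -0.07 in Prog and -0.13 in Int, and those of G2/M had -0.08 and -0.36, from 147, 140, 197 and 153 CPM.

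Of the 4 genes of deoxynucleotide supply, 1 was higher and 1 lower in Prog, against 17.3% and 51.1% of all genes. In Int 0 were higher and 1 lower, against 18.5% and 23.9%. Tyms, thymidylate synthase, had the highest Prog ratio of the 39 genes, 0.77 (0.50 to 1.04), at 4.03, 6.86, 8.39 and 9.58 CPM, with 0.19 (0.03 to 0.36) in Int. Macrophage-like cells outside the cycle also held it, 21.3% of them with a UMI against 3.34% of the non-cycling cells of all classes, and without that class the Prog ratio was 0.24 (-0.09 to 0.57). Rrm1, the large subunit of ribonucleotide reductase, was at 19.3, 15.7, 21.8 and 16.1 CPM, with -0.30 (-0.44 to -0.16) and -0.44 (-0.55 to -0.33). Rrm1 was lower in the library with the 1.25% cholesterol history at both times in CPM. The median of all genes was -0.28 in Prog and -0.04 in Int. Its Prog ratio changed sign with median-of-ratios size factors and as mean UMIs per cell.

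**Figure D5:**
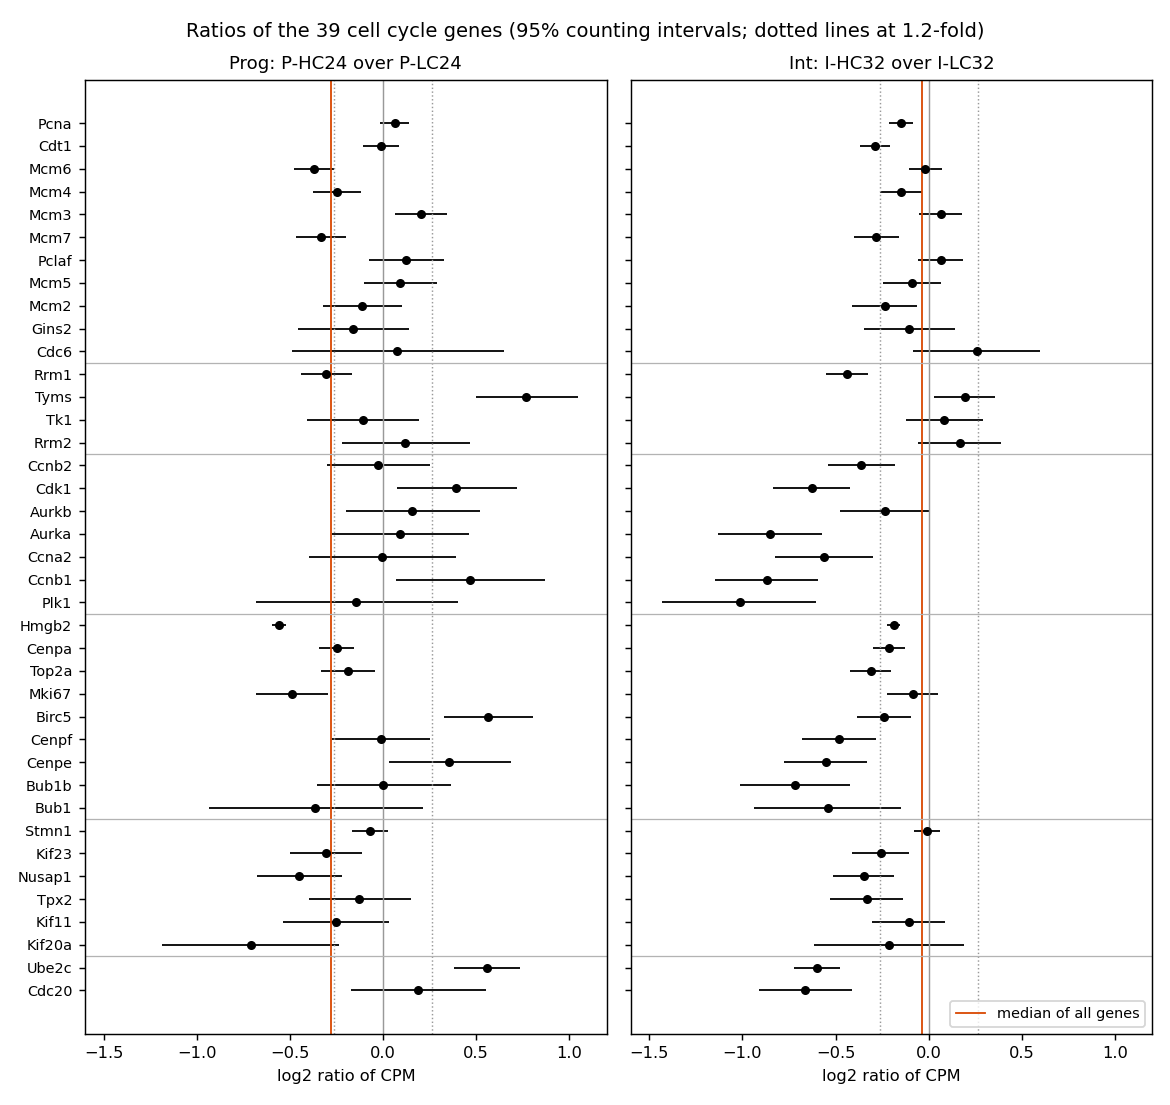
Log2 ratio of each of the 39 genes in Prog (P-HC24 over P-LC24) and Int (I-HC32 over I-LC32), with 95% intervals for counting error, by role, a line at the median of all genes and dotted lines at 1.2-fold. In Int no gene is at least 1.2-fold higher (18.5% of all genes) and 18 are lower (23.9% of all genes), with Plk1 the lowest. In Prog 6 are higher (17.3% of all genes) and 9 lower (51.1% of all genes).

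Within classes the counts differed. In B-1-like cells, 5 of 31 genes with enough UMIs were higher in Prog, against 14.3% of all genes, and 12 lower, against 43.0%. In Int 7 of 37 were higher, against 18.6%, and 16 lower, against 16.1%, and the medians were -0.11 (all genes -0.19) in Prog and -0.14 (0.03) in Int. In macrophage-like cells 1 of 37 was higher in Prog, against 23.9%, and 32 lower, against 37.4%, with a median of -1.37 (-0.10). In Int 3 of 37 were higher, against 15.8%, and 26 lower, against 35.1%, with a median of -0.54 (-0.13). The low-cholesterol libraries gave 35 and 74 macrophage-like cells for these ratios, so they rest on 12 and 10 cycling cells. The genes that did not reach 50 UMIs over a pair of libraries were left out, 8 and 2 in B-1-like cells and 2 in macrophage-like cells.

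The rest of the cell cycle path was read from lists of genes outside the 39. Of 30 other S phase genes, 1 was higher and 17 lower in Prog, and 5 higher and 5 lower in Int, with medians of -0.36 and -0.04, where 51.1% of all genes were lower in Prog and 23.9% in Int. Of 50 other G2/M genes, 9 were higher and 27 lower of 48 tested in Prog, and 3 higher and 24 lower in Int, with medians of -0.30 and -0.26. Nasp, a histone chaperone, was at 78.5, 57.8, 78.2 and 53.4 CPM (-0.44 in Prog, -0.55 in Int), and Anln, anillin of the contractile ring, had the highest Int ratio among the G2/M genes, 1.03 (0.64 to 1.42), at 2.10, 1.87, 1.28 and 2.61 CPM. Slbp, the histone mRNA binding protein, had -0.50 and -0.23. The S phase extremes were Ccne2 (-1.12) and Chaf1b (0.27) in Prog and Chaf1b (-0.59) and Exo1 (0.58) in Int. Among the G2/M genes H2az1 (0.36 and -0.07) and Tubb4b (0.58 and 0.26) were the most abundant, and Cip2a (-0.97) and Pbk (0.86) in Prog and Kif2c (-0.97) in Int were the other extremes.

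Of the 7 CDK inhibitors, 5 were higher and 1 lower in Prog, against 17.3% and 51.1% of all genes. In Int 4 were higher and 0 lower, against 18.5% and 23.9%. Cdkn1a (p21) was at 25.2, 71.6, 30.9 and 95.4 CPM, with log2 ratios of 1.51 (1.41 to 1.61) and 1.63 (1.55 to 1.70). Cdkn2a (p16 and p19) was at 1.61, 8.68, 1.78 and 8.38 CPM, with 2.43 (2.05 to 2.83) and 2.23 (1.94 to 2.54), and Cdkn1b (p27) at 106.6, 66.8, 79.9 and 67.7 CPM, with -0.67 and -0.24. Without macrophage-like cells Cdkn1a had 0.23 and 0.06 and Cdkn2a -0.25 and 0.08. The list then had 2 higher and 2 lower in Prog, against 12.9% and 51.0% of all genes, and in Int 0 higher and 2 lower, against 14.5% and 22.3%. The high values of Cdkn1a and Cdkn2a were thus not seen without macrophage-like cells, which were more numerous with the 1.25% cholesterol history.

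Of 9 G1 cyclins and kinases, Prog had 2 higher and 6 lower and Int 2 higher and 2 lower. Ccnd3, the abundant cyclin D of lymphocytes, was at 779.1, 442.7, 728.1 and 652.8 CPM (-0.82 and -0.16), and Ccnd1, that of many adherent cells, at 21.3, 43.6, 15.9 and 48.9 CPM (1.03 and 1.62, but -1.03 and -0.23 without macrophage-like cells). Ccnd2 had -0.48 and 0.20, and Cdk2 had the lowest Int ratio, -0.36. Of 19 genes of RB, E2F and DREAM, Prog had 1 higher and 13 lower and Int 2 higher and 2 lower, beside the same shares. E2f1 was the higher one in Prog, at 2.96, 4.44, 4.41 and 5.70 CPM (0.59 and 0.37). Rbl2, the p130 pocket protein, had the lowest Prog ratio (-0.94), Foxm1, which drives genes of G2/M, the lowest Int ratio (-0.47), and Rb1 had -0.58 and -0.07. Of 10 genes of quiescence, each contrast had 3 higher and 5 lower, beside the same shares. Klf4 was the highest in both, at 0.41 and 0.76 (-0.27 and -0.10 without macrophage-like cells), Btg1 the lowest in Prog, at -0.83, and Tob2 the lowest in Int, at -0.47. Foxp1, at 2078.5, 1379.5, 2392.2 and 1943.5 CPM, and Klf2, at 1137.1, 1478.8, 1547.0 and 2194.0 CPM, were the most abundant, the former with log2 ratios of -0.59 and -0.30 and the latter with 0.38 and 0.50.

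Genes outside all these lists were also ranked by their ratio of cycling to other cells in the macrophage-like class, which held the most cycling cells. Ska1, which joins kinetochores to microtubules, had 138 UMIs in 46 of 138 cycling cells and 0 in 1067 others. Esco2, of sister chromatid cohesion, had 156 UMIs against 2, Shcbp1 144 against 3, Cep55, of abscission, 106 against 1, and Neil3, a DNA glycosylase, 102 against 1. Iqgap3, Kif14, Kntc1 and Prr11 had 55 to 68 UMIs against 1 to 3, in 28 to 34 cycling cells. C77080, with 58 UMIs against 1, was found in 1 cycling cell only. These genes were ranked by the difference between cells that the rule itself split, so the ranking is a description.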

How the data were processed

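Aspirates were dissociated and run on the 10X Genomics platform. The authors deposited 1 matrix of UMI counts per library, unnormalized, with Cell Ranger 9.0.1, Seurat 5.3 and the GRCm39 genome named in the submitters' processing notes. From these counts, cells with at least 500 UMIs, 300 genes and at most 10% mitochondrial UMIs were kept, and the cells with the highest Scrublet doublet scores (0.8% per 1000 cells) were removed. Ambient RNA was not subtracted. The kept cells were normalized with SCTransform (sctransform 0.4.2, version 1 flavor, Seurat 5.3.0, R 4.3.3). They were reduced to 30 components of 3000 variable genes without the listed cell cycle and histone genes. They were then integrated over libraries with a Harmony procedure written for this work, and clustered at resolution 0.4. Other steps used Python 3.11.15 with numpy 2.4.6, scipy 1.17.1, pandas 2.3.3 and scanpy 1.11.5.

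Genes were compared as summed UMIs per 1000000 (CPM) where both libraries held at least 50 UMIs together, and called past 1.2-fold, with exact 95% intervals for counting error only. Depth was 38509673 to 77017579 kept UMIs per library. Libraries are single, so no p-value was computed and no paired fit was possible. The steps were tested on simulated data. The genes, lists and rules were chosen with earlier results of these data known. All 39 genes could be named. Full values were given for the 3 rule genes, the most abundant gene of each role and the extremes of each ratio, and in the other lists for the 2 most abundant and the extremes; further genes with values were chosen after these were seen. Gene positions are from GENCODE in GRCm39, and promoters from RefSeq in GRCm38.p6. Alternatives covered the cell filters, the cycling rule, thinning, the clustering, the scaling, the filters on genes and macrophage-like cells.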

Additional observations from a re-analysis of the deposited data

Results flagged for a closer look

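For 4 of the 39 genes the ratio was at least 1.2-fold up in Prog and at least 1.2-fold down in Int. The share of all genes with this pattern was not counted, so the 4 are a description. Each counting interval left out 0, but these intervals take UMIs as independent. The 121 and 260 UMIs of Cdk1 in P-LC24 and P-HC24 lay in 39 and 69 cells. Birc5 pointed the same way, with an Int ratio of -0.24 that was under 1.2-fold. The difference of the log2 ratios, Int minus Prog, was -1.02 for Cdk1 (0.39 and -0.63), -1.33 for Ccnb1 (0.46 and -0.87), -0.91 for Cenpe (0.36 and -0.55) and -1.15 for Ube2c (0.56 and -0.60). With 1 library per condition this difference was not tested. Macrophage-like cells held 2.80% of UMIs on low and 17.3% on high cholesterol at week 24, and without them the Prog ratio was -0.21 for Cdk1, 0.16 for Ccnb1, -0.29 for Cenpe and 0.18 for Ube2c.

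The share of cycling cells pointed the other way, with a log2 ratio of -0.27 in Prog and 0.58 in Int, a difference of 0.85 that was not tested. Thinned to 3000 UMIs per cell, the shares within each time had overlapping intervals.

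Droplets removed as doublets lay outside the comparisons, and 3.21% of them met the cycling rule, against 1.96% of the kept cells. A doublet adds the UMIs of its cells, and the part of depth in this share was not tested.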

How the results depend on the processing

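The cycling shares as reported were 1.62% and 1.35% at week 24 (P-LC24 and P-HC24) and 1.91% and 2.85% at week 32 (I-LC32 and I-HC32). In that order they became 0.690%, 0.766%, 1.08% and 1.55% with at least 3 UMIs, 0.649%, 0.735%, 1.06% and 1.37% with a UMI in each of at least 2 of the 3 genes, 0.325%, 0.505%, 0.688% and 0.809% with at least 10, 0.517%, 0.476%, 0.887% and 0.985% thinned to 3000 UMIs and 2.49%, 2.35%, 3.42% and 3.52% thinned to 10000. P-LC24 was thus above P-HC24 under some rules and under it in others. A mitochondrial limit of 5% gave 1.92%, 2.56% and 3.36% from P-HC24 on, all barcodes gave 1.24% in P-LC24 and 1.55% in I-LC32, equal class shares gave 3.102% in P-LC24 and 2.23% in I-HC32, and leaving out macrophage-like cells gave 0.807% in P-HC24 and 1.91% in I-HC32.

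By class, at least 3 UMIs gave 6.81% in macrophage-like cells, 0.925% in B-1-like cells and 3.44% in the T-like cluster 5. Thinning to 3000 UMIs gave 3.26%, 0.553% and 3.23%, with 4.49% in cluster 12, and thinning to 10000 gave 6.58%, 1.54% and 30.99%, the last over 142 deep cells. Keeping the cell cycle genes in the clustering gave 2.50% in B-1-like cells and 3.96% in the T-like cluster 5. Of 128 class shares by library under the alternatives, 97 stayed within their counting interval and 31 did not.

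The counts in Prog, 6 higher and 9 lower of 39, became 1 and 1 at 1.5-fold (7.87% and 25.9% of all genes). Among genes in at least 10% of cells they were 0 and 4 of 10 (16.5% and 47.5% of all genes). Outside the cycling cells they were 3 and 21 of 35 (17.6% and 51.2%). They were 20 and 1 as mean UMIs per cell (33.8% and 27.3%) and 21 and 1 with median-of-ratios size factors (36.8% and 23.7%). At a mitochondrial limit of 5% they were 22 and 5 (20.5% and 51.7%), and without macrophage-like cells 0 and 18 (12.9% and 51.0%). The 18 lower in Int became 7 at 1.5-fold (9.59% of all genes) and 3 of 10 among genes in at least 10% of cells (12.2%). They became 7 per cell (9.38%) and 28 at the 5% limit (29.1%). The 0 higher became 3 of 35 outside the cycling cells (18.9%), 8 per cell (54.7%) and 1 with size factors (22.4%).

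The summed log2 ratio, -0.24 in Prog and -0.20 in Int, reversed to 0.059 and 0.14 as mean UMIs per cell. It was -0.094 and -0.23 without Stmn1, Hmgb2 and Pcna, -0.020 and -0.41 at the 5% limit, and -0.29 and -0.25 without macrophage-like cells.

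Of 480 log2 ratios of single genes under the alternatives, 261 stayed within their interval and 199 moved. Either group may hold changes of sign in ratios under 1.2-fold, which were not counted apart. The other 20 ratios were at least 1.2-fold as reported and changed sign. Outside the cycling cells these were, in Prog, Ccnb1 (-0.59), Birc5 (-0.24), Cenpe (-0.40) and Ube2c (-0.33), and in Int Ccnb1 (0.022), Cenpe (0.30) and Tpx2 (0.11). As mean UMIs per cell they were Rrm1 in Prog (0.00035) and Top2a (0.022), Mcm7 (0.052) and Cdt1 (0.044) in Int. With size factors they were Kif23 (0.050), Mcm7 (0.024) and Rrm1 (0.052) in Prog. At the 5% limit they were Mki67 (0.19), Bub1 (0.11) and Kif23 (0.13) in Prog, and without macrophage-like cells Cdk1 (-0.21), Birc5 (-0.046) and Cenpe (-0.29) in Prog. The cause was not tested where the alternative's own construction does not show it.

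The shares and sums kept their values within these limits with a mitochondrial limit of 20% and no doublet removal. The shares by class did so with no doublet removal, no integration and resolutions of 0.2 and 0.8. The counts were unchanged with no filter on low counts. With no doublet removal the lower genes went from 9 to 12 in Prog and from 18 to 19 in Int, and the higher ones stayed at 6 and 0. Among all genes 51.2% in Prog and 23.95% in Int were then lower, and 17.3% and 18.4% higher.

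With 1 library per condition, the spread between mice is unknown, and depth limits genes such as Plk1 and Kif20a, with 50 to 131 UMIs per library. The thinning to 10000 UMIs, the rule of at least 10 UMIs and the runs without macrophage-like cells, were added after the data were seen. No paired analysis was possible because each condition is 1 library.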
